A study of Mus musculus with 12 samples.

Results

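Ribosome footprints of RAW264 cells given lipopolysaccharide (LPS) for 30 min were compared with footprints of untreated, basal cells, gene by gene. A footprint, or ribosome-protected fragment (RPF), is the piece of mRNA that a ribosome shields from nuclease, so the footprints of a gene measure how much ribosome sits on its mRNA at that moment. RAW264 is an established mouse macrophage line. LPS, a component of the bacterial cell wall, was given at 100 ng/ml for 30 min, to 2 footprint libraries. Basal cells, which received no LPS, gave 2 footprint libraries. A further 2 footprint libraries came from cells given LPS at 100 ng/ml together with the glucocorticoid dexamethasone (DEX, 10 µM) for 30 min. They share the estimate of spread in the fit, and their values are given beside some genes. Cells of every group were incubated with cycloheximide at 100 µg/ml before extraction, which holds cytosolic ribosomes on mRNA. Each group holds 2 independent biological replicates of this one line, so the values describe a cell line in culture and not primary macrophages. Of the 12 libraries of the study, the 4 footprint libraries of LPS and basal cells carry the comparison, and the poly(A) mRNA libraries of the same treatments are set beside them. Of 9621 listed genes, 8847 were tested, those whose values came to 10 or more reads in 2 or more footprint libraries once depth was set to the median.

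LPS is sensed by the receptor TLR4, which signals through adaptors and kinases to the transcription factor NF-kB and to MAP kinases. NF-kB induces cytokines and also its own inhibitors, and MAP kinases induce immediate early genes, which need no prior protein synthesis. A footprint count can move because the mRNA is made or destroyed, because ribosomes load more or less often, or because they move along it at another speed. Ribosomes of the mitochondrion are separate from those of the cytosol and are not held by cycloheximide.

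The LPS libraries held 829415 and 821946 reads, against 1310291 and 1520612 reads in the basal libraries, so low genes are measured less finely after LPS. One read is worth 1.21 and 1.22 CPM (counts scaled to the library total) in the LPS libraries, against 0.763 and 0.658 CPM in the basal ones. All 12 macrophage markers on a fixed list were present, at a summed 7447 and 7323 CPM in LPS-treated cells, against 7087 and 7778 CPM in basal cells. Markers of endothelium, lymphocytes, granulocytes and erythroid cells were not among the listed genes. Of 5 epithelial markers Krt7 alone was listed, at no more than 2.43 CPM in the 4 libraries, and of 5 fibroblast markers Col3a1 alone was. Footprints on Col3a1, a fibrillar collagen, were 65.1 and 60.8 CPM in LPS-treated cells and 142 and 115 CPM in basal cells, a log2 fold change of -1.01 ± 0.14 (limma, adjusted p = 0.0006). Its part in the other results was not tested.

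Ribosome footprints changed on 674 genes (7.62% of those tested), with a gain on 292 (3.3%) and a loss on 382 (4.32%), at a Benjamini-Hochberg adjusted p under 0.05 in limma, fitted over the 6 footprint libraries. The median log2 fold change over all genes tested was -0.07. These shares and this median are the background for every group of genes described below. Fits that leave out 1 LPS or basal library are called reduced fits, and 3 of the 4 gave fewer calls: without LPS replicate 1 there were 137 higher and 238 lower, without LPS replicate 2 there were 157 and 237, and without basal replicate 2 there were 216 and 235, against 365 and 344 without basal replicate 1. CPM values are relative to the total of a library, and scaling by the median of ratios instead gave 378 higher and 279 lower, so which direction is the more frequent depends on the scaling. The groups did not overlap, with both LPS libraries above both basal libraries, for 20.5% of genes, and with both below for 29.9%. All 292 genes that rose and all 382 that fell were among these. Non-overlap in genes below that passed therefore comes with their call and is no further support. Among the genes that rose the median log2 fold change was 0.91, and among those that fell it was -0.72. Changes over 1 on the log2 scale were 139 gains and 110 losses.

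**Figure D1:**
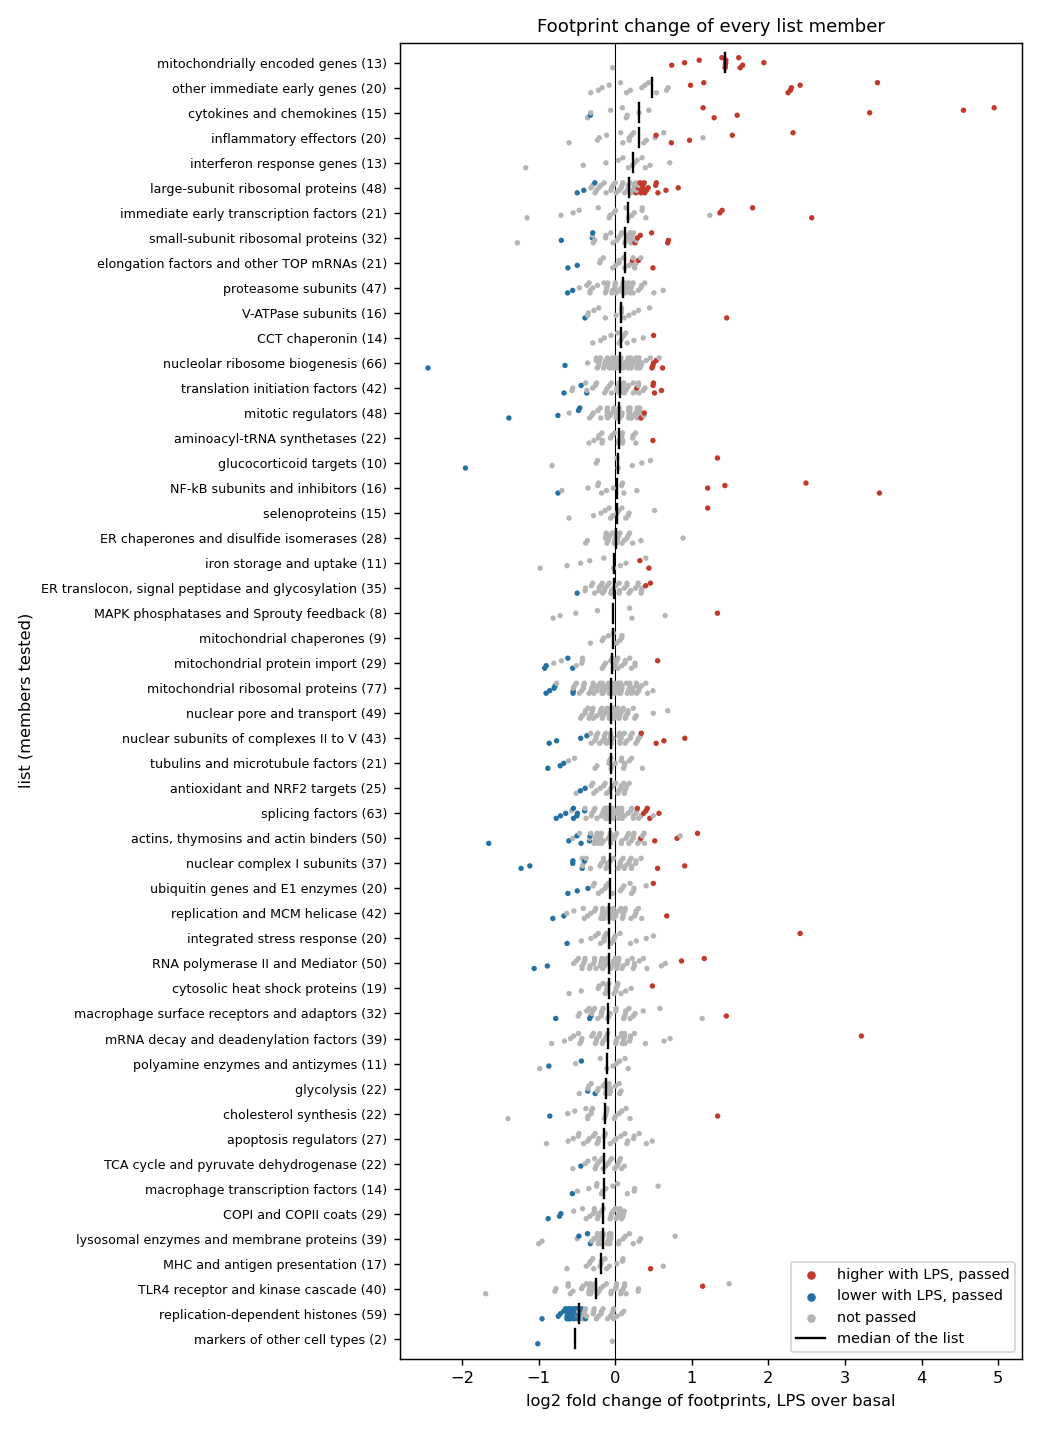
Log2 fold change of footprints, LPS over basal, for each tested member of 52 functional lists (1 row per list, ordered by the list's median, which is the black bar). Red points passed as higher, blue points as lower and grey points did not pass. The mitochondrially encoded genes stand at the top with a median of 1.44, and the replication-dependent histones lie near the bottom with a median of -0.48.

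Secreted inflammatory signals were among the genes with the strongest gains. Of 15 cytokine and chemokine genes tested, 6 rose (40%) and 1 fell, with a median log2 fold change of 0.31. Footprints on Tnf, the inflammatory cytokine TNF, were 1267 and 1263 CPM in LPS-treated cells, against 58.8 and 48.01 CPM in basal cells, which is 23.7-fold (log2 4.55 ± 0.13, limma adjusted p = 2.64e-11). Cxcl2, which draws neutrophils, had 225.5 and 226 CPM with LPS and 7.63 and 5.26 CPM in basal cells, or 35.04-fold (log2 4.95 ± 0.23, adjusted p = 1.61e-08). In both genes the 2 LPS libraries lay close together and far above either basal library. Cells given LPS and DEX had 1057 and 813 CPM on Tnf and 284 and 162 CPM on Cxcl2. Cxcl3, a neighbour and close relative of Cxcl2, had 9.645 and 14.6 CPM with LPS, against 0 and 0.658 CPM in basal cells, where it lay at or under 3 reads, so no fold is given (limma adjusted p = 0.001695).

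The macrophage inflammatory chemokines, which attract monocytes and lymphocytes, were already translated in basal cells and rose less. Ccl4 had 292 and 366 CPM in LPS-treated cells and 96.9 and 119.7 CPM in basal cells (3.04-fold, log2 1.59 ± 0.14, limma adjusted p = 1.21e-05). Its relative Ccl3 had 312 and 251 CPM with LPS, against 111 and 143 CPM in basal cells (2.22-fold, log2 1.15 ± 0.14, adjusted p = 0.000198). The TNF family member Tnfsf9, a costimulatory ligand for T cells, had 92.8 and 99.8 CPM with LPS and 32.05 and 46.7 CPM in basal cells (2.45-fold, adjusted p = 0.000947). The LPS and basal libraries of these 3 genes did not overlap. In a pool of cells, more footprints in each cell and more cells with footprints cannot be told apart. The member that fell was Grn, the secreted precursor of the granulins, at 957 and 929.5 CPM with LPS and 1183 and 1179 CPM in basal cells (log2 -0.32 ± 0.08, adjusted p = 0.02796). That call was lost when an LPS library was left out, with an adjusted p of 0.107 without LPS replicate 1 and 0.149 without LPS replicate 2.

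Among the genes of NF-kB itself, the gains lay on IkB family members and A20. Of 16 subunits and inhibitors, 4 rose (25%) and 1 fell, with a median of 0.03. Nfkbiz, an atypical IkB protein that steers secondary inflammatory genes in the nucleus, had 78.4 and 80.3 CPM in LPS-treated cells, against 7.63 and 5.26 CPM in basal cells (12.3-fold, log2 3.45 ± 0.22, limma adjusted p = 4.95e-07). Nfkbid, another nuclear IkB protein, had 32.55 and 36.5 CPM with LPS and 6.11 and 4.603 CPM in basal cells (6.45-fold, adjusted p = 7.02e-05). Nfkbia, the IkB protein that holds NF-kB in the cytoplasm and is destroyed and then resupplied during the response, had 500.4 and 523 CPM with LPS, against 217 and 226 CPM in basal cells (2.31-fold, log2 1.21 ± 0.09, adjusted p = 1.91e-06). In these 3 genes both LPS libraries lay above both basal libraries. Tnfaip3, the ubiquitin-editing enzyme A20 that shuts the pathway down, had 38.6 and 45.02 CPM with LPS and 11.45 and 19.1 CPM in basal cells (2.74-fold, log2 1.43 ± 0.24, adjusted p = 0.00216). With LPS and DEX, footprints were 161.5 and 114.5 CPM on Nfkbiz, 859 and 813 CPM on Nfkbia and 107 and 88.9 CPM on Tnfaip3.

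The NF-kB subunit Rela moved in opposite directions in footprints and mRNA. Its footprints were 32.55 and 31.6 CPM in LPS-treated cells, against 58 and 51.3 CPM in basal cells (log2 -0.75 ± 0.21, limma adjusted p = 0.0462), while its mRNA read 88.65 and 94.45 CPM with LPS and 31.9 and 35.2 CPM in basal cells. The footprint call was lost when any of the 4 libraries was left out, with an adjusted p of 0.107 without LPS replicate 1, 0.1199 without LPS replicate 2, 0.172 without basal replicate 1 and 0.0893 without basal replicate 2. The gap between the footprint and the mRNA change was tested as translational efficiency (TE), the footprint change minus the mRNA change, in 1 fit over the 12 libraries. For Rela it was -2.17 ± 0.29 on the log2 scale (limma adjusted p = 0.00131, and 0.001645 with median-of-ratios scaling). Some TE changes below are also given without the basal mRNA library of replicate 1. That library held 3197 CPM of mRNA on the replication-dependent histones. Basal replicate 2 held 273.4 CPM on them, and the LPS mRNA libraries held 579.8 and 628.2 CPM. In this test 3.08% of 9412 genes had a higher and 13.6% a lower TE with LPS. Since TE holds the footprint change, TE counts among genes picked for that change are not separate support for it. The partner subunits Nfkb1, Nfkb2 and Relb did not pass in footprints, at -0.35, -0.23 and -0.18 on the log2 scale.

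The upstream machinery held few calls. Of 40 genes of the TLR4 receptor and kinase cascade, 1 rose and none fell, with a median log2 fold change of -0.25. Tlr4 had 54.3 and 52.3 CPM with LPS and 55.7 and 49.98 CPM in basal cells (log2 0.01 ± 0.19), and its co-receptor Cd14 had 626 and 601 CPM with LPS and 680 and 836 CPM in basal cells (log2 -0.30 ± 0.10, limma adjusted p = 0.0857). The member that rose was Ticam2, the adaptor that bridges TLR4 to its interferon-inducing branch, at 21.7 and 32.85 CPM with LPS, against 10.7 and 12.5 CPM in basal cells (2.35-fold, adjusted p = 0.04403). Its call was lost in several reduced fits, with an adjusted p of 0.207 without LPS replicate 2, 0.136 without basal replicate 1 and 0.0893 without basal replicate 2. The list gained 1 lower call and lost its higher one without LPS replicate 2, had 3 lower without basal replicate 1 and had no call without basal replicate 2. Map3k8, the kinase Tpl2 that links NF-kB to the MAP kinase ERK, had 13.3 and 15.8 CPM with LPS and 6.11 and 3.29 CPM in basal cells and just missed the threshold (log2 1.49 ± 0.45, adjusted p = 0.0577). Rnf31, the catalytic subunit of the complex that builds linear ubiquitin chains on the way from TNF and Toll-like receptors to NF-kB, was in no list and was chosen after its values were seen. It had 137 and 152 CPM with LPS, against 18.3 and 21.04 CPM in basal cells (7.36-fold, log2 2.82 ± 0.18, adjusted p = 4.95e-07), and 39.3 and 45.3 CPM with LPS and DEX.

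Since NF-kB inhibitors and chemokines moved together, the 250 bases before the start of each gene were searched for the NF-kB consensus on both strands, in RefSeq promoters of build GRCm38.p6. Counted here are the members of 8 response lists, which are cytokines and chemokines, NF-kB genes, the TLR4 cascade, immediate early transcription factors, other immediate early genes, MAPK feedback, mRNA decay and inflammatory effectors. Of 29 such genes that rose, 22 had a promoter in the table and 7 of these held a match (31.8%). The 8 lists were written with earlier results of these data known. List members that did not rise were not counted apart, so this share is no support for the footprint gain. A match stood in 16 of 170 promoters of the other genes that rose (9.41%), in 18 of 266 of those that fell (6.77%), in 601 of 6855 of all genes tested (8.77%) and in 1894 of 27025 promoters of the whole table (7.01%). The motif TGACGTCA, bound by CREB and ATF proteins, stood in 18.2% of the 22 promoters, in 1.18% of the other genes that rose, in 2.63% of those that fell, in 2.92% of those of all genes tested and in 1.62% of the whole table. TATAAA stood in 18.2% of the 22, in 10% of the other genes that rose, in 9.4% of those that fell, in 5.66% of all genes tested and in 13% of the whole table. The promoters of 4 of the 7 genes with a match are shown to make the site visible. They run 5′ to 3′ on the strand of the gene, with the bases of the match in capitals. They are Cxcl2 (chr5:90903649-90903898 on the plus strand), Cxcl3 (chr5:90785851-90786100 on the plus strand), Nfkbia (chr12:55492648-55492897 on the minus strand) and Ier3 (chr17:35821463-35821712 on the plus strand).
Cxcl2: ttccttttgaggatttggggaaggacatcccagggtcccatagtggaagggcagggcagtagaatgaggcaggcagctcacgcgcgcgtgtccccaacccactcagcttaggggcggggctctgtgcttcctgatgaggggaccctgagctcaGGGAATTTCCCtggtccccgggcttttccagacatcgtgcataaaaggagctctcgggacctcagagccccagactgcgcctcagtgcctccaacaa
Cxcl3: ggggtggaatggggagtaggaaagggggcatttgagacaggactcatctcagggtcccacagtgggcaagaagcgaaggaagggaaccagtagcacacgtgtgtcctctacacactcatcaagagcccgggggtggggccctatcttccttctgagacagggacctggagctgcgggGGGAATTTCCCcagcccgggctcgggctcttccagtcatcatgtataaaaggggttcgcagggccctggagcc
Nfkbia: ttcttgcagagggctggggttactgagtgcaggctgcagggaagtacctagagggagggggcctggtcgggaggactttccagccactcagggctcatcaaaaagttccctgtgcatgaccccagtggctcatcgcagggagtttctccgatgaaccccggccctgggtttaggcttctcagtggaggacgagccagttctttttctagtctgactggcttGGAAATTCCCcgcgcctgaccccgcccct
Ier3: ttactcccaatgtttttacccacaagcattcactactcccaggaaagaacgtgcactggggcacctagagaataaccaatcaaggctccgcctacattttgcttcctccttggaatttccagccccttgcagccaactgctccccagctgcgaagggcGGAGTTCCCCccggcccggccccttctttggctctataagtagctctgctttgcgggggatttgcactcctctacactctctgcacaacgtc
Cxcl2 and Cxcl3 carry the same run of capitals, in which 2 overlapping matches lie, one on each strand. In Nfkbia the match begins at position -29 and in Ier3 at -92 from the start. The window before Tnf held no match to this pattern. A match is a description of the letters and not a measured binding site.

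Immediate early genes rose in part. Of 21 immediate early transcription factors 4 rose (19.0%) and none fell, with a median of 0.17, and of 20 other immediate early genes 7 rose (35%) and none fell, with a median of 0.49. The AP-1 subunit Junb had 251 and 263 CPM in LPS-treated cells, against 111 and 84.8 CPM in basal cells (2.63-fold, log2 1.40 ± 0.13, limma adjusted p = 1.603e-05). Its relative Jun had 98.9 and 112 CPM with LPS and 35.1 and 24.99 CPM in basal cells (3.51-fold, log2 1.79 ± 0.17, adjusted p = 2.45e-05). Fos, their dimer partner, had 20.5 and 25.55 CPM with LPS, against 2.29 and 3.95 CPM in basal cells (7.385-fold, adjusted p = 0.000361). All 3 AP-1 genes had both LPS libraries above both basal libraries. Csrnp1, a nuclear protein induced by growth signals, had 24.1 and 19.5 CPM with LPS and 5.34 and 11.2 CPM in basal cells (adjusted p = 0.0371), a call lost in 3 reduced fits (adjusted p 0.146 without LPS replicate 1, 0.0768 without LPS replicate 2 and 0.2065 without basal replicate 1).

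Among the other immediate early genes, Ier3, a survival factor, had the clearest gain, with 106 and 103 CPM in LPS-treated cells, against 9.16 and 8.55 CPM in basal cells (11.8-fold, log2 3.425 ± 0.19, limma adjusted p = 8.86e-08). Ier2, a nuclear growth-response protein, had 104 and 124 CPM with LPS and 30.5 and 16.4 CPM in basal cells (4.85-fold, adjusted p = 2.61e-05). Btg2, which restrains proliferation and recruits deadenylases, had 68.7 and 52.3 CPM with LPS, against 16.03 and 8.55 CPM in basal cells (4.925-fold, adjusted p = 0.000113). These 3 genes separated the 2 treatments without overlap. The stress-responsive kinase Plk2 had 316 and 314 CPM with LPS and 129.7 and 153 CPM in basal cells (2.23-fold, log2 1.16 ± 0.15, adjusted p = 0.000297). Ppp1r15a, which brings a phosphatase to the initiation factor eIF2 and so restores translation after stress, had 32.55 and 18.25 CPM with LPS, against 3.05 and 4.603 CPM in basal cells (6.635-fold, adjusted p = 0.001695). Arc, best known from neurons, was at 15.7 and 13.4 CPM with LPS and 0.763 and 4.603 CPM in basal cells (5.41-fold, adjusted p = 0.0113, but 0.06575 without LPS replicate 1). The small GTPase Rhob stood at 31.35 and 29.2 CPM with LPS, against 11.45 and 19.1 CPM in basal cells (1.98-fold, adjusted p = 0.0362, but 0.1198 without LPS replicate 1, 0.0886 without LPS replicate 2 and 0.216 without basal replicate 1).

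Feedback by MAP kinase phosphatases and mRNA decay was narrow at this time. Of 8 MAPK phosphatase and Sprouty genes 1 rose, and of 39 mRNA decay and deadenylation factors 1 rose, with none lower in either list. A decay factor also passed as lower when either LPS library was left out. Dusp1, which inactivates p38 and JNK, had 16.9 and 18.25 CPM in LPS-treated cells, against 7.63 and 5.26 CPM in basal cells (2.725-fold, log2 1.335 ± 0.23, limma adjusted p = 0.00302). The same gene had 223 and 221 CPM with LPS and DEX, far above both. Zfp36, the protein TTP that brings AU-rich cytokine mRNAs to decay, had 74.75 and 94.9 CPM with LPS and 16.03 and 3.95 CPM in basal cells (8.49-fold, log2 3.215 ± 0.38, adjusted p = 0.000152), with the 2 basal libraries well apart from each other. Cells given LPS and DEX had 184 and 188 CPM on Zfp36. Dusp2, a nuclear phosphatase of ERK and p38, had 18.1 and 19.5 CPM with LPS and 14.5 and 9.21 CPM in basal cells and did not pass (log2 0.65 ± 0.29, adjusted p = 0.201).

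Of 20 inflammatory effectors 5 rose and none fell, with a median of 0.31. Ccrl2, a chemokine-binding receptor, had 12.1 and 13.4 CPM in LPS-treated cells and 1.53 and 1.97 CPM in basal cells, where it lay at or under 3 reads (limma adjusted p = 0.00331). Ptgs2, the inducible cyclooxygenase of prostaglandin synthesis, had 28.9 and 38.9 CPM with LPS, against 17.55 and 15.8 CPM in basal cells (2.04-fold, adjusted p = 0.0264, but 0.1305 without LPS replicate 2 and 0.0978 without basal replicate 2). Nos2, the inducible nitric oxide synthase, had 28.9 and 52.3 CPM with LPS and 19.1 and 8.55 CPM in basal cells (adjusted p = 0.04265, but 0.05003 without LPS replicate 1, 0.246 without LPS replicate 2 and 0.267 without basal replicate 2), and 3.02 and 3.82 CPM with LPS and DEX. In Nos2 each treatment's 2 libraries differed widely from each other. Gpr84, a receptor for medium-chain fatty acids, had 109.7 and 79.1 CPM with LPS, against 51.1 and 60.5 CPM in basal cells (adjusted p = 0.0492, but 0.268 without LPS replicate 1 and 0.1299 without basal replicate 1). Il1rn, the natural antagonist of the interleukin-1 receptor, had 188 and 192 CPM with LPS and 116 and 148 CPM in basal cells (1.44-fold, adjusted p = 0.03965, but 0.1198 without LPS replicate 1, 0.137 without LPS replicate 2 and 0.2225 without basal replicate 1). When either LPS library was left out 2 members of this list passed, and without either basal library 3 did. None of 13 interferon response genes passed (limma, median 0.23), where Oas3 stood lowest at -1.17 and Ifih1 highest at 0.71 on the log2 scale.

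**Figure D2:**
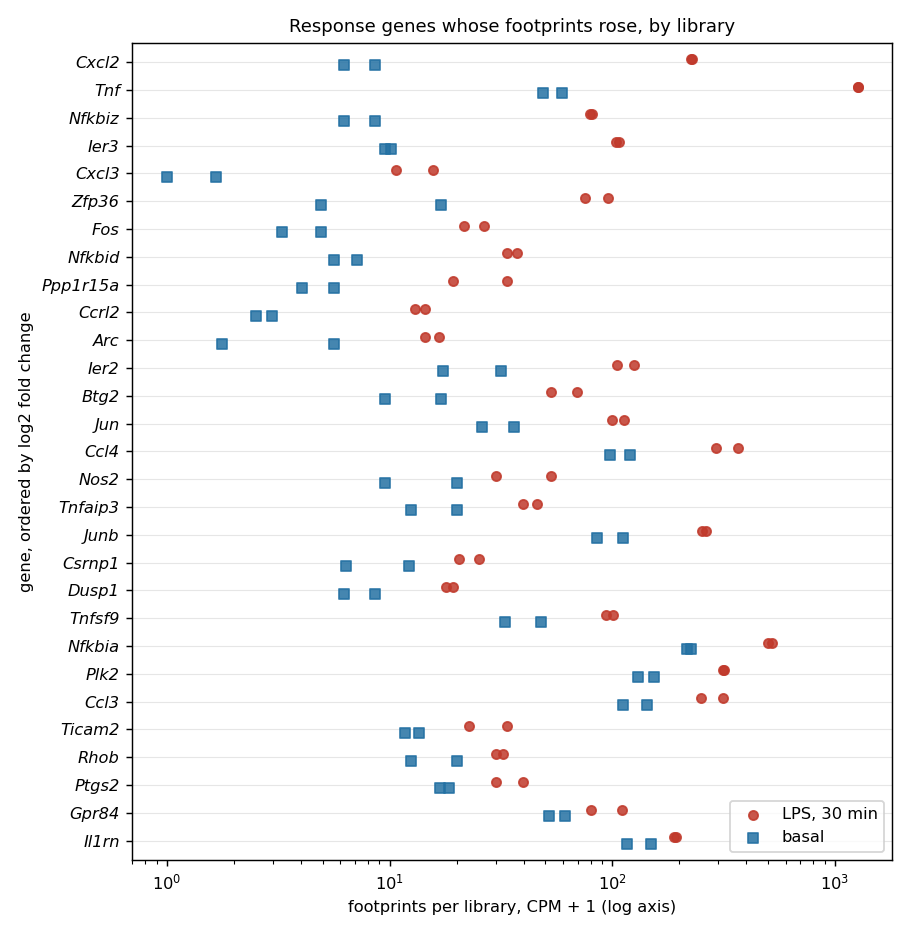
Footprints (CPM + 1, log axis) of the 29 members of the 8 response lists that rose, 1 row per gene, with each LPS library as a red circle and each basal library as a blue square. Both LPS libraries lie to the right of both basal libraries in every row, as in all genes that rose, with Tnf at the far right for LPS.

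For most of these 29 genes the mRNA was also higher with LPS. Their median log2 fold change was 1.59 in footprints (0.53 to 4.95) and 2.49 in mRNA (2.24 with median-of-ratios scaling), and the mRNA change was above 0 for 28 of 29, or for 26 with median-of-ratios scaling. The member below 0 under both was Nos2, with an mRNA change of -0.14 on the CPM scale. None of the 29 passed as higher in TE, and 1 did with median-of-ratios scaling. Jun is an example in which mRNA moved further, by 3.28 on the log2 scale against 1.79 in footprints (TE -1.49 ± 0.35, limma adjusted p = 0.0125, 0.0439 with median-of-ratios scaling and 0.0151 without basal mRNA replicate 1).

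**Figure D3:**
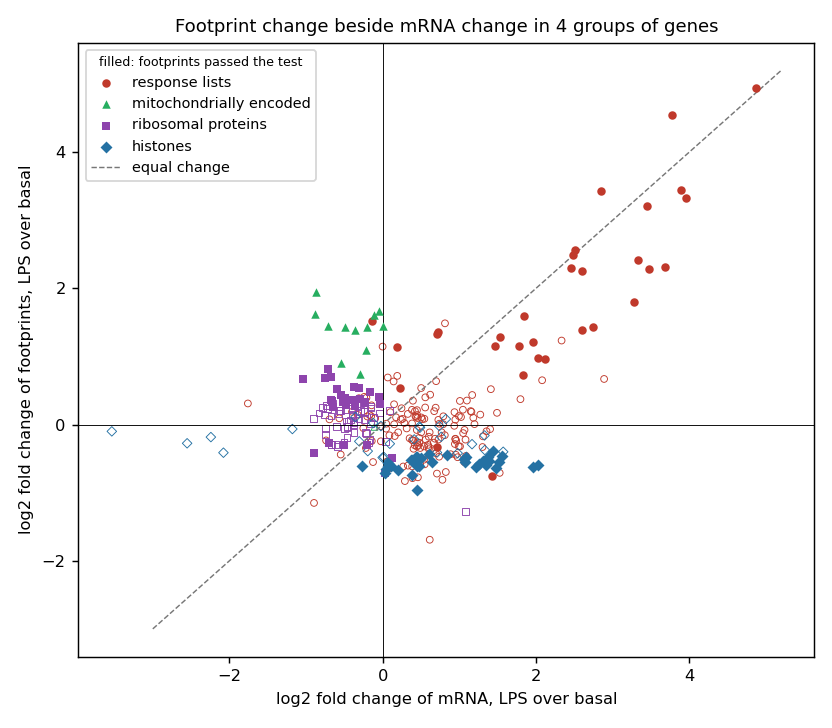
Log2 fold change of footprints (vertical axis) against that of mRNA (horizontal axis), LPS over basal, for the response lists, the mitochondrially encoded genes, the ribosomal proteins and the replication-dependent histones. Filled points passed in footprints and the dashed line marks equal change. The response genes that rose lie to the right with mRNA gains, and the mitochondrially encoded genes lie high at mRNA changes below or near 0. The histones lie low at mRNA changes mostly above 0, but many of their mRNA values come to only a few reads.

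The broadest gain of any list was in mRNAs of the mitochondrial genome, which encode core subunits of the respiratory chain and of ATP synthase and are read by mitochondrial ribosomes. Of 13 such genes 12 rose (92.3%), with a median log2 fold change of 1.44. Together they took 8681 and 9481 CPM in LPS-treated cells, 2168 and 1897 CPM with LPS and DEX, and 4111 and 3653 CPM in basal cells. The LPS libraries were thus the highest and the LPS and DEX libraries the lowest. Across all footprint libraries these sums also fell strictly as depth rose. Depth was 829415 and 821946 reads with LPS, 1310291 and 1520612 reads in basal cells, and 1653342 and 1833560 reads with LPS and DEX. Depth thus ordered the libraries as treatment did, and its part in the gain of this list was not tested. The complex I subunit mt-Nd3 had 274 and 294 CPM with LPS, against 65.6 and 81.55 CPM in basal cells (3.86-fold, log2 1.94 ± 0.15, limma adjusted p = 2.199e-06). The cytochrome oxidase subunit mt-Co1 had 2394 and 2537 CPM with LPS and 974 and 665.5 CPM in basal cells (3.01-fold, log2 1.61 ± 0.15, adjusted p = 1.19e-05). Its partner mt-Co2 had 927 and 1009 CPM with LPS, 206 and 206 CPM with LPS and DEX and 354 and 274 CPM in basal cells (3.08-fold, adjusted p = 1.18e-06). In each of these the LPS libraries agreed closely and lay above every other library.

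Within the mitochondrial genome the 2 ATP synthase subunits and cytochrome b had the lowest folds. Folds of LPS over basal ran from 2.13 (mt-Nd5) to 3.86 (mt-Nd3) among the 7 complex I subunits, and from 2.699 (mt-Co3) to 3.08 (mt-Co2) among the 3 oxidase subunits, with calls kept when any library was left out. mt-Atp6 had 950.1 and 1062 CPM with LPS and 548 and 523.5 CPM in basal cells (1.88-fold, log2 0.91 ± 0.10, limma adjusted p = 9.22e-05). mt-Cytb, the core of complex III, had 1002 and 1139 CPM with LPS, against 526 and 779 CPM in basal cells (1.64-fold, adjusted p = 0.00559, but 0.0714 without LPS replicate 2). The member that did not pass was mt-Atp8, at 332 and 355 CPM with LPS and 369 and 334 CPM in basal cells (log2 -0.03 ± 0.11, adjusted p = 0.887). It is read from the same transcript as mt-Atp6, and its LPS and basal libraries overlapped. The mRNA of the 12 genes that rose had a median change of -0.33 (-0.59 with median-of-ratios scaling). TE, which holds the footprint change they were picked by, passed as higher for 11 of them, or for 12 with median-of-ratios scaling. For mt-Nd3 the TE change was 2.81 ± 0.35 (adjusted p = 0.00128, and 0.0001803 without basal mRNA replicate 1).

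**Figure D4:**
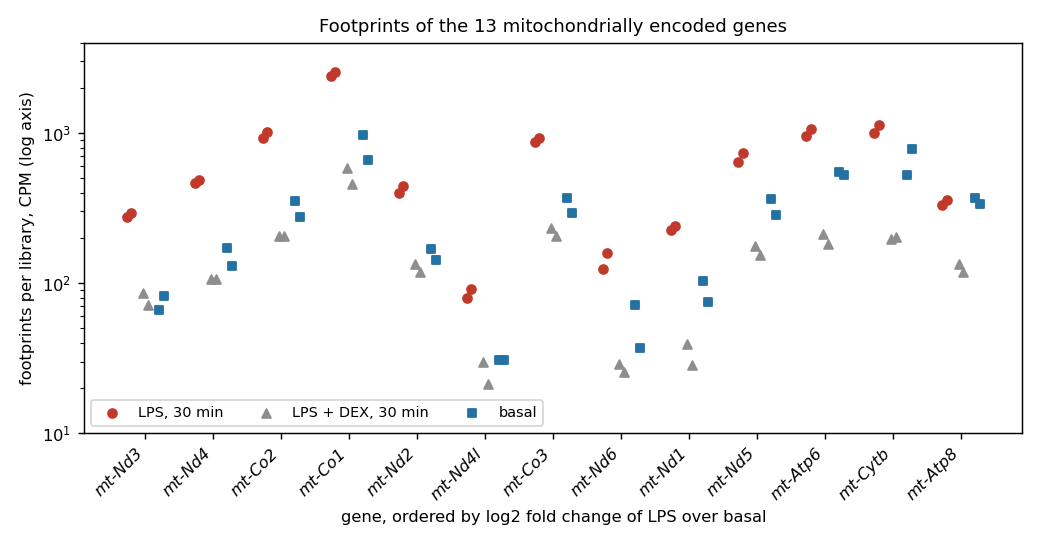
Footprints (CPM, log axis) of the 13 mitochondrially encoded genes in every library, for LPS, LPS with DEX, and basal cells from left to right. Except for mt-Atp8, LPS points lie above basal points, and LPS with DEX points lie below the LPS points in every gene.

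The mRNAs of the cytosolic ribosome are known for a pyrimidine tract at their 5′ end that couples their translation to mTOR signalling. Of 48 large-subunit proteins 16 rose (33.3%) and 3 fell, with a median of 0.18, and of 32 small-subunit proteins 6 rose (18.8%) and 3 fell, with a median of 0.13. In sum the large-subunit mRNAs held 51700 and 50750 CPM in LPS-treated cells, against 44420 and 46040 CPM in basal cells, and the small-subunit mRNAs 32080 and 31310 CPM with LPS, against 28630 and 29880 CPM in basal cells. The number of calls rests on both LPS libraries: without LPS replicate 1 it was 3 and 2 higher for the large and small subunit, and without LPS replicate 2 it was 6 and 4. The gains that kept their call in all 4 such fits are named next, and a loss in each subunit kept its call too. Rpl39, of the large subunit, had 575 and 538 CPM with LPS and 359.5 and 274 CPM in basal cells (1.76-fold, log2 0.82 ± 0.13, limma adjusted p = 0.00108). Rps15a had 1802 and 1729 CPM with LPS, against 1074 and 1122 CPM in basal cells (1.61-fold, log2 0.685 ± 0.07, adjusted p = 7.89e-05). Rpl7 had 2879 and 2784 CPM with LPS and 1925 and 1920 CPM in basal cells (1.47-fold, log2 0.56 ± 0.07, adjusted p = 0.000365). In these 3 genes the LPS libraries lay above the basal ones, with the basal libraries of Rpl39 the farthest apart. Rps27 and Rpl17, at 1.62-fold and 1.44-fold, were the other 2 gains that kept their call. Ribosomal protein genes have many near-identical pseudogene copies, so reads may have been split among them and single members are uncertain.

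For the 22 ribosomal protein genes that rose the mRNA changes lay below 0. Their median log2 fold change was 0.38 in footprints (0.26 to 0.82) and -0.48 in mRNA (-0.74 with median-of-ratios scaling). Of their mRNA changes 22 of 22 were negative. Lower mRNA was not particular to the genes that rose. The median mRNA change was -0.46 over all 48 large-subunit and -0.44 over all 32 small-subunit genes tested. TE, which holds the footprint change they were picked by, passed as higher for 20 of the 22, or for 22 with median-of-ratios scaling. Rps15a mRNA changed by -0.75 on the log2 scale, which gave a TE change of 1.44 ± 0.14 (limma adjusted p = 0.000466, and 0.0001803 without basal mRNA replicate 1). Against this, Rps2 fell, at 549 and 465 CPM with LPS and 801 and 846 CPM in basal cells (1.625-fold higher in basal, log2 -0.70 ± 0.10, adjusted p = 0.000474). So did Rplp0, the scaffold of the stalk of the ribosome, at 588 and 603 CPM with LPS and 788 and 897 CPM in basal cells (log2 -0.50 ± 0.09, adjusted p = 0.00316). The stalk protein Rplp2 fell slightly, at 1272 and 1281 CPM with LPS and 1537 and 1532 CPM in basal cells (log2 -0.27 ± 0.07, adjusted p = 0.03835, but 0.173 without LPS replicate 1 and 0.1555 without LPS replicate 2).

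Translation factors were mixed. Of 42 initiation factors 5 rose and 3 fell, with a median of 0.07, and of 21 elongation factors and other mRNAs with a pyrimidine tract 3 rose and 2 fell, with a median of 0.12, or 7 and 2 with median-of-ratios scaling. Eif3a, the scaffold subunit of eIF3, had 969 and 996 CPM in LPS-treated cells, against 707.5 and 589.9 CPM in basal cells (1.515-fold, log2 0.60 ± 0.09, limma adjusted p = 0.001297). Eif2s2, the beta subunit of eIF2, had 524.5 and 534 CPM with LPS and 361 and 380.1 CPM in basal cells (1.43-fold, adjusted p = 0.00547). Another eIF3 subunit, Eif3m, went the opposite way, at 194 and 179 CPM with LPS and 295 and 298 CPM in basal cells (1.59-fold higher in basal, log2 -0.67 ± 0.10, adjusted p = 0.00108). Subunits of 1 complex thus changed in both directions. Ubb, a polyubiquitin precursor, had 634 and 636 CPM with LPS, against 970 and 980.5 CPM in basal cells (log2 -0.62 ± 0.08, adjusted p = 0.000465), the clearest loss in the second list. The elongation factor Eef1a1 had 12760 and 12690 CPM with LPS and 10450 and 11310 CPM in basal cells (log2 0.23 ± 0.07, adjusted p = 0.0485, but 0.251 without LPS replicate 1 and 0.232 without LPS replicate 2). Eef2 did not pass, at 2397 and 2252 CPM with LPS and 2710 and 2596 CPM in basal cells (log2 -0.19 ± 0.07). The higher and lower calls without LPS replicate 1 were 2 and 1 for initiation factors and 0 and 1 for the second list, and without LPS replicate 2 they were 3 and 1, and 0 and 1. Without either basal library the initiation factors had 5 and 2, and the second list had 5 and 2 without basal replicate 1 and 4 and 1 without basal replicate 2.

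The deepest loss of any list member was on 1 ribosome assembly gene, Nob1, and was not shared by its list. Of 66 nucleolar and ribosome biogenesis genes 5 rose (7.576%) and 2 fell (3.03%), with a median of 0.07. Over all genes tested 3.3% rose and 4.32% fell. Nob1, the endonuclease that trims the last precursor of the small-subunit RNA, had 92.8 and 82.7 CPM in LPS-treated cells, 99.2 and 100.4 CPM with LPS and DEX and 456 and 508 CPM in basal cells. It was 5.495-fold higher in basal cells than with LPS (log2 -2.445 ± 0.12, limma adjusted p = 2.23e-08), and the LPS and basal libraries did not overlap. Its mRNA changed by 0.40 on the log2 scale, for a TE change of -2.85 ± 0.19 (adjusted p = 1.32e-05, and 8.32e-06 without basal mRNA replicate 1). Nop58, a core protein of the box C/D particles that guide methylation of ribosomal RNA, had 509 and 446.5 CPM with LPS and 335 and 322 CPM in basal cells (log2 0.54 ± 0.11, adjusted p = 0.00744, but 0.0805 without LPS replicate 1). Nucleolin, Ncl, had 6505 and 6554 CPM with LPS, against 5379 and 4001 CPM in basal cells (log2 0.49 ± 0.11, adjusted p = 0.0142, but 0.0913 without LPS replicate 1 and 0.0975 without LPS replicate 2). Of the 66, none passed as higher without LPS replicate 1 and 2 without LPS replicate 2 or basal replicate 2, against 8 without basal replicate 1. 

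Replication-dependent histones, whose mRNAs end in a stem-loop in place of a poly(A) tail, lost ribosomes more often than any other list. Of 59 tested 34 fell (57.6%) and none rose, with a median log2 fold change of -0.48. By type, 12 of 19 H2A, 11 of 15 H2B, 9 of 13 H4, 2 of 7 H3 and 0 of 5 linker H1 genes fell. Their summed footprints were 30810 and 28930 CPM in LPS-treated cells, 27800 and 30080 CPM with LPS and DEX, and 35220 and 45690 CPM in basal cells, so the basal libraries differed from each other by more than the LPS libraries did. Hist3h2a, an H2A gene, had 189 and 232 CPM with LPS and 389 and 427 CPM in basal cells (1.935-fold higher in basal, log2 -0.96 ± 0.11, limma adjusted p = 0.0001697). The H2B gene Hist1h2bg had 499 and 444 CPM with LPS, against 682 and 911.5 CPM in basal cells (1.69-fold higher in basal, adjusted p = 0.001695). Its relative Hist1h2bf had 423 and 411 CPM with LPS and 607.5 and 774 CPM in basal cells (1.66-fold higher in basal, adjusted p = 0.00125). In these 3 genes no LPS library reached a basal one. The count depends on the libraries: 17 fell without LPS replicate 1, 9 without LPS replicate 2 and 17 without basal replicate 2, against 48 without basal replicate 1, and 7 kept their call in all 4 fits. With median-of-ratios scaling 27 fell. Histone coding sequences are nearly identical within a type, so reads cannot be assigned to single genes with certainty and the members are not independent. The mRNA libraries are poly(A) selected, so their histone values cover only transcripts with a tail. Many of these values come to only a few reads. Hist1h2bg mRNA read 0.591 and 1.757 CPM with LPS and 0.678 and 0.541 CPM in basal cells. Others were higher, such as Hist1h2ah at 30.73 and 38.22 CPM with LPS and 6.779 and 8.661 CPM in basal cells.

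Cell cycle genes beyond the histones moved singly. In the replication list 2.381% rose and 4.762% fell, with a median of -0.08. In the mitotic list 4.167% rose and 8.333% fell, with a median of 0.05. Over all genes tested 3.3% rose and 4.32% fell. Of 42 replication genes 1 rose (Pole3) and 2 fell (Pold2 and Prim2), with the Pole3 call lost without either LPS library or basal replicate 2 and the Prim2 call without LPS replicate 2 or basal replicate 1, and of 48 mitotic regulators 2 rose and 4 fell. Birc5, the survivin of the chromosomal passenger complex, had 62.7 and 49.9 CPM in LPS-treated cells, against 143.5 and 153 CPM in basal cells (2.63-fold higher in basal, log2 -1.39 ± 0.15, limma adjusted p = 6.599e-05). Pold2, an accessory subunit of DNA polymerase delta, had 75.96 and 93.7 CPM with LPS and 146 and 153 CPM in basal cells (1.76-fold higher in basal, log2 -0.81 ± 0.14, adjusted p = 0.00292). Neither gene overlapped between the treatments. Mki67, the proliferation marker Ki-67, was slightly higher, at 940.4 and 894 CPM with LPS and 719.7 and 731 CPM in basal cells (log2 0.34 ± 0.08, adjusted p = 0.01996, but 0.136 without LPS replicate 1 and 0.07555 without LPS replicate 2). The mitotic list without either LPS library had 0 higher and 1 lower, and without basal replicate 2 it had 1 and 2. The cell cycle genes that follow were in no list and were chosen after their values were seen. That they all fell therefore shows no trend of such genes. Cdk4, the kinase of the G1 phase, had 293 and 257 CPM with LPS, against 498 and 494.5 CPM in basal cells (1.805-fold higher in basal, log2 -0.85 ± 0.10, adjusted p = 0.000191). E2f4, a repressor of cell cycle genes, had 36.2 and 32.85 CPM with LPS and 83.95 and 90.1 CPM in basal cells (2.52-fold higher in basal, log2 -1.31 ± 0.16, adjusted p = 0.000192), and 81.65 and 75.8 CPM with LPS and DEX. The tumour suppressor Trp53 had 174 and 206 CPM with LPS and 288 and 297 CPM in basal cells (1.54-fold higher in basal, log2 -0.63 ± 0.11, adjusted p = 0.00314).

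Nuclear genes for the mitochondrion did not follow the mitochondrial genome. Of 37 nuclear complex I subunits 2 rose and 6 fell (median -0.06), of 43 subunits of complexes II to V 4 rose and 4 fell (median -0.05), of 77 mitochondrial ribosomal proteins none rose and 6 fell (median -0.05), and of 29 import genes 1 rose and 4 fell. With median-of-ratios scaling the counts of complexes II to V were 6 and 3 and those of the mitochondrial ribosomal proteins 1 and 3. Ndufb7, an accessory subunit of complex I, had 68.7 and 62.05 CPM in LPS-treated cells, against 162 and 147 CPM in basal cells (2.36-fold higher in basal, log2 -1.23 ± 0.13, limma adjusted p = 7.89e-05). Ndufb2, another accessory subunit, had 34.96 and 29.2 CPM with LPS and 67.2 and 73.65 CPM in basal cells (2.195-fold higher in basal, adjusted p = 0.00138). Ndufab1, the acyl carrier protein that also sits in complex I, went up instead, with 222 and 186 CPM with LPS, against 111 and 105 CPM in basal cells (1.89-fold, log2 0.91 ± 0.13, adjusted p = 0.000586). Within complex I the nuclear subunits therefore moved both ways while the mitochondrial ones rose. Sdhb, the iron-sulfur subunit of succinate dehydrogenase, had 134 and 135 CPM with LPS and 257 and 233.5 CPM in basal cells (1.825-fold higher in basal, log2 -0.86 ± 0.11, adjusted p = 0.000215), and 296 and 286 CPM with LPS and DEX. Timm23, the channel of the inner-membrane translocase, had 79.6 and 64.5 CPM with LPS, against 130.5 and 139 CPM in basal cells (1.87-fold higher in basal, adjusted p = 0.00211). Mrpl10, a stalk protein of the mitochondrial ribosome, had 36.2 and 41.4 CPM with LPS and 73.3 and 68.4 CPM in basal cells (1.83-fold higher in basal, adjusted p = 0.00927, but 0.0509 without LPS replicate 1).

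The nuclear mitochondrial counts varied between reduced fits. Left without LPS replicate 1, complex I had 1 higher and 2 lower, complexes II to V had 1 and 2, the mitochondrial ribosomal proteins had 0 and 1 and the import genes had 1 and 2. Without LPS replicate 2 these were 1 and 5, 1 and 2, 0 and 3, and 0 and 3. Without basal replicate 2 they were 1 and 7, 2 and 3, 0 and 2, and 1 and 2, and without basal replicate 1 they were 2 and 4, 4 and 5, 1 and 4, and 1 and 3. Cholesterol synthesis held 1 higher and 1 lower of 22 genes. Fdft1, the squalene synthase that commits farnesyl groups to sterols, had 218 and 164 CPM in LPS-treated cells, against 84.7 and 65.1 CPM in basal cells (2.55-fold, log2 1.34 ± 0.17, limma adjusted p = 0.0002302), and 76.2 and 84.5 CPM with LPS and DEX. Insig1, which restrains sterol synthesis, had 21.7 and 26.8 CPM with LPS and 40.45 and 48.7 CPM in basal cells (log2 -0.85 ± 0.22, adjusted p = 0.0285, but 0.112 without LPS replicate 1 and 0.183 without basal replicate 2).

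Genes of the actin cytoskeleton moved both ways. Of 50 actins, thymosins and actin binders 4 rose and 6 fell, or 7 and 4 with median-of-ratios scaling. Tmsb4x, thymosin beta 4, which binds actin monomers, had 1075 and 926 CPM in LPS-treated cells, against 374 and 598 CPM in basal cells (2.06-fold, log2 1.075 ± 0.16, limma adjusted p = 0.0009095). Its mRNA changed by -0.85 on the log2 scale, for a TE change of 1.93 ± 0.31 (adjusted p = 0.00235, and 0.0004125 without basal mRNA replicate 1). Coro1a, a leukocyte actin regulator of phagosomes, had 506 and 522 CPM with LPS and 794 and 772 CPM in basal cells (1.52-fold higher in basal, log2 -0.61 ± 0.08, adjusted p = 0.000416). Actb itself stood at 7734 and 7645 CPM with LPS and 8690 and 10710 CPM in basal cells (log2 -0.33 ± 0.08, adjusted p = 0.0299, but 0.152 without LPS replicate 1 and 0.171 without LPS replicate 2), although its mRNA changed by 1.36. The list, left without LPS replicate 1, had 1 higher and 3 lower, without LPS replicate 2 it had 2 and 1, without basal replicate 1 it had 10 and 7 and without basal replicate 2 it had 1 and 5. Cdc42, the GTPase that starts filopodia, had 211 and 227.5 CPM with LPS, against 367 and 355 CPM in basal cells (1.65-fold higher in basal, adjusted p = 0.000468), and the dynein light chain Dynll1 had 136 and 136 CPM with LPS, against 217.5 and 218 CPM in basal cells (1.597-fold higher in basal, adjusted p = 0.00211).

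In the coats of secretory vesicles the calls fell on 1 family of GTPases. Of 29 COPI and COPII coat genes none rose and 3 fell, and the 3 were the GTPases Arf1, Arf4 and Arf5, which recruit vesicle coats. Arf1 had 225.5 and 247 CPM in LPS-treated cells, against 420.5 and 447 CPM in basal cells (1.84-fold higher in basal, log2 -0.88 ± 0.10, limma adjusted p = 9.22e-05). Arf4 had 81.99 and 77.9 CPM with LPS and 153 and 115 CPM in basal cells (log2 -0.73 ± 0.15, adjusted p = 0.00928, but 0.0564 without LPS replicate 2 and 0.06104 without basal replicate 1). Arf5 had 63.9 and 60.8 CPM with LPS and 96.9 and 108.5 CPM in basal cells (log2 -0.71 ± 0.14, adjusted p = 0.00832, but 0.0554 without basal replicate 2). No LPS library of these 3 genes reached a basal one. Of 39 lysosomal genes 3 fell (median -0.16), but with median-of-ratios scaling none fell and 2 rose, so their direction depends on the scaling. Lysosomal losses numbered 1 without LPS replicate 1, none without LPS replicate 2 and 2 without basal replicate 2. Of 16 V-ATPase subunits 1 rose and 1 fell, Atp6v1a (adjusted p = 0.0208, but 0.129 without LPS replicate 1, 0.0595 without LPS replicate 2 and 0.0766 without basal replicate 2). The gain was on Atp6v1d, a stalk subunit, at 146 and 300.5 CPM with LPS and 77.85 and 73.65 CPM in basal cells (2.95-fold, adjusted p = 0.001695), with the LPS libraries well apart. Trappc8, a subunit of the TRAPP tethering complex chosen after its values were seen, had 950.1 and 1155 CPM with LPS, 558 and 1028 CPM with LPS and DEX and 282 and 126 CPM in basal cells (5.17-fold, log2 2.47 ± 0.29, adjusted p = 0.00015).

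Calls on macrophage identity genes were mostly losses. Over all genes tested 3.3% rose and 4.32% fell. Of 32 surface receptors and adaptors 1 rose (3.125%) and 3 fell (9.375%), or 1 and 1 with median-of-ratios scaling. Of 14 macrophage transcription factors none rose and 1 fell (7.143%). That factor, Irf5, which drives inflammatory cytokines, had 56.7 and 59.6 CPM with LPS and 85.5 and 86.8 CPM in basal cells (log2 -0.56 ± 0.15, adjusted p = 0.0387), a call lost in all 4 reduced fits (adjusted p 0.122 without LPS replicate 1, 0.0851 without LPS replicate 2, 0.0924 without basal replicate 1 and 0.136 without basal replicate 2). Cx3cr1, the fractalkine receptor of monocytes and microglia, had 252 and 285 CPM in LPS-treated cells, 178 and 151 CPM with LPS and DEX and 115 and 82.2 CPM in basal cells (2.72-fold over basal, log2 1.45 ± 0.15, limma adjusted p = 6.599e-05). Its mRNA moved by 3.11 on the log2 scale. Csf1r, the receptor for the growth factor that macrophages depend on, had 879 and 858 CPM with LPS and 1104 and 1060 CPM in basal cells (log2 -0.32 ± 0.08, adjusted p = 0.0307, but 0.1175 without LPS replicate 1 and 0.152 without LPS replicate 2). Fcgr3, a low-affinity receptor for immunoglobulin G, had 40.99 and 41.4 CPM with LPS, against 64.9 and 78.3 CPM in basal cells (log2 -0.78 ± 0.18, adjusted p = 0.0172, but 0.0615 without LPS replicate 1, 0.0583 without LPS replicate 2 and 0.116 without basal replicate 2). The inhibitory receptor Sirpa stood at 587 and 639.9 CPM with LPS and 775 and 770.1 CPM in basal cells (log2 -0.33 ± 0.08, adjusted p = 0.0282, but 0.183 without LPS replicate 1 and 0.06603 without LPS replicate 2). The 3 receptor losses thus all rest on both LPS libraries, and none passed without either one.

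Stress, iron and redox lists, which are small, held 1 or 2 calls in a direction. The shares that rose were 5% of integrated stress response genes, 18.18% of iron genes and 6.667% of selenoproteins, against 3.3% over all genes tested. The shares that fell were 5% of integrated stress response genes and 8% of antioxidant genes, against 4.32%. Of 20 integrated stress response genes 1 rose (Ppp1r15a, above) and 1 fell. The one that fell was Atf4, the transcription factor that the response translates, at 44.6 and 53.5 CPM in LPS-treated cells and 78.6 and 73.65 CPM in basal cells (log2 -0.63 ± 0.18, limma adjusted p = 0.0465), a call lost in all 4 reduced fits (adjusted p 0.179 without LPS replicate 1, 0.0564 without LPS replicate 2, 0.167 without basal replicate 1 and 0.123 without basal replicate 2). Of 25 antioxidant and NRF2 target genes none rose and 2 fell, Gsr and Pgd, and neither passed with median-of-ratios scaling or without either LPS library, while 4 fell without basal replicate 1 and 1 rose and 1 fell without basal replicate 2. Of 11 iron genes 2 rose, and of 15 selenoproteins 1 did. Fth1, the heavy chain of the iron store ferritin, had 1130 and 1111 CPM with LPS, against 815 and 836 CPM in basal cells (1.36-fold, log2 0.44 ± 0.08, adjusted p = 0.00325). The transferrin receptor Tfrc had 933 and 948 CPM with LPS and 758 and 746 CPM in basal cells (log2 0.32 ± 0.08, adjusted p = 0.0314, but 0.123 without LPS replicate 1 and 0.145 without LPS replicate 2). Selenoh, a nucleolar selenoprotein, had 179.6 and 158 CPM with LPS and 84.7 and 61.8 CPM in basal cells (2.305-fold, log2 1.21 ± 0.17, adjusted p = 0.000555). Fth1 and Selenoh kept their calls in every reduced fit. None of 28 ER chaperones, 9 mitochondrial chaperones, 49 nuclear pore and transport genes or 27 apoptosis regulators passed in limma over all 6 libraries. Their extremes were Dnajb9 at 0.89 and Ero1l at -0.39 among ER chaperones, Hspd1 at 0.09 and Dnaja3 at -0.32 among mitochondrial chaperones, Nup35 at 0.69 and Ipo8 at -0.45 among nuclear pore genes, and Bcl2l1 at 0.48 and Xiap at -0.90 among apoptosis regulators (log2). In reduced fits a few of these passed, with 2 ER chaperones higher without basal replicate 1 and 1 without basal replicate 2, 1 nuclear pore gene lower without LPS replicate 1 and 1 apoptosis regulator lower without basal replicate 2.

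Calls on transcription and splicing genes went both ways. Of 63 splicing factors 6 rose (9.524%) and 8 fell (12.7%), or 9 and 5 with median-of-ratios scaling. Of 50 RNA polymerase II and Mediator genes 2 rose (4%) and 2 fell (4%), near the 3.3% and 4.32% over all genes tested. Polr2k, a small subunit shared by the 3 nuclear RNA polymerases, had 61.5 and 73 CPM in LPS-treated cells, against 25.2 and 34.2 CPM in basal cells (2.265-fold, log2 1.16 ± 0.21, limma adjusted p = 0.00409). Polr2c, another subunit of polymerase II, had 60.3 and 76.65 CPM with LPS and 115 and 139 CPM in basal cells (1.855-fold higher in basal, log2 -0.89 ± 0.16, adjusted p = 0.00388). Supt6, a histone chaperone of elongating polymerase, had 269 and 317.5 CPM with LPS, against 188 and 136 CPM in basal cells (1.81-fold, adjusted p = 0.00211). The polymerase subunits Polr2k and Polr2c thus moved in opposite directions, in a list whose shares lay near those of all genes tested. Prpf19, the ubiquitin ligase of the spliceosome, had 391.8 and 377 CPM with LPS and 560.2 and 562 CPM in basal cells (1.46-fold higher in basal, log2 -0.54 ± 0.09, adjusted p = 0.00169). The splicing gains and losses numbered 0 and 4 without LPS replicate 1, 1 and 6 without LPS replicate 2, 9 and 9 without basal replicate 1, and 1 and 4 without basal replicate 2.

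In no list stood 182 of the 292 genes that rose and 263 of the 382 that fell, against 7373 of the 8847 genes tested. Among them 75 kept their call in all 4 fits that leave out an LPS or basal library and had a mean mRNA level of at least 20 CPM, 26 higher and 49 lower. The 75 were chosen after their values were seen, and 6 of the 26 and 6 of the 49 are predicted genes named Gm, which may share reads with other loci. The higher ones had a median log2 fold change of 1.09 in footprints and 0.13 in mRNA (-0.13 with median-of-ratios scaling). The lower ones had -1.09 in footprints and 0.28 in mRNA (0.02 with median-of-ratios scaling). TE, which holds the footprint change they were picked by, passed in the same direction for 17 and 44 of them. With median-of-ratios scaling it did for 19 and 32.

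Losses outside the lists included Mfge8, a secreted bridge by which macrophages engulf dying cells. It had 510 and 512 CPM in LPS-treated cells, 421 and 309 CPM with LPS and DEX and 1622 and 1434 CPM in basal cells, 2.99-fold higher in basal than with LPS (log2 -1.575 ± 0.12, limma adjusted p = 2.39e-06). Its mRNA changed by 0.51, for a TE change of -2.09 ± 0.29 (adjusted p = 0.00134, 0.00361 with median-of-ratios scaling and 0.000307 without basal mRNA replicate 1). Shc1, an adaptor that links receptors to RAS, had 24.1 and 31.6 CPM with LPS, against 80.9 and 97.99 CPM in basal cells (3.21-fold higher in basal, log2 -1.65 ± 0.21, adjusted p = 0.000296). Nras, a RAS GTPase, had 60.3 and 47.45 CPM with LPS and 93.1 and 106 CPM in basal cells (1.85-fold higher in basal, log2 -0.88 ± 0.17, adjusted p = 0.005503). In each of these 3 genes no LPS library reached a basal one. Orai1, the pore of the calcium channel that opens when stores empty, had 108.5 and 128 CPM with LPS, against 256 and 202 CPM in basal cells (1.94-fold higher in basal, log2 -0.94 ± 0.14, adjusted p = 0.000777), while its mRNA changed by 1.74. Aph1a, a subunit of gamma-secretase, had 49.4 and 60.8 CPM with LPS and 117 and 133.5 CPM in basal cells (2.27-fold higher in basal, adjusted p = 0.000317). Lamtor1, which anchors mTORC1 signalling to the lysosome, had 31.35 and 40.15 CPM with LPS, against 73.3 and 71.7 CPM in basal cells (2.03-fold higher in basal, adjusted p = 0.00302). These 6 genes showed no overlap between treatments.

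Gains outside the lists included the next 5 genes, also chosen after their values were seen. Slc44a1, a choline transporter, had 229 and 239.7 CPM in LPS-treated cells, 52.6 and 66.5 CPM with LPS and DEX and 64.9 and 69.7 CPM in basal cells (3.48-fold over basal, log2 1.79 ± 0.15, limma adjusted p = 5.08e-06). Dok1, an adaptor that restrains tyrosine kinase signalling in immune cells, had 148 and 152 CPM with LPS, 51.4 and 38.2 CPM with LPS and DEX and 54.2 and 42.75 CPM in basal cells (3.099-fold over basal, log2 1.62 ± 0.18, adjusted p = 9.22e-05). In both genes the LPS and DEX libraries lay near the basal ones and the LPS libraries stood alone. An LPS mean above the LPS and DEX mean was not particular to these genes. It held for 25 of the 26 higher genes outside the lists described above. The LPS libraries also held the fewest reads, and the part of depth was not tested. S100a4, a small calcium-binding protein of motile cells, had 1014 and 1016 CPM with LPS and 622 and 625 CPM in basal cells (1.63-fold, log2 0.70 ± 0.09, adjusted p = 0.000317), with nearly equal replicates in both groups. Calm2, one of the calmodulin genes, had 729 and 755.5 CPM with LPS, against 539 and 441 CPM in basal cells (1.515-fold, log2 0.61 ± 0.10, adjusted p = 0.00219). Tnrc6b, a GW182 protein that carries out silencing by microRNAs, had 104 and 117 CPM with LPS and 44.3 and 55.9 CPM in basal cells (2.201-fold, adjusted p = 0.00083). The mRNA of S100a4 and Calm2 changed by -0.85 and -0.61, below 0 while their footprints rose.

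Many of the largest changes were on genes with little mRNA, and several had basal replicates that disagreed. Of the 15 highest that met the naming rule, 13 were in no list, 7 had a mean mRNA level under 5 CPM and 9 had basal replicate 1 over 2-fold above basal replicate 2. Over all genes that rose, 35 of 292 (11.99%) had an mRNA level under 5 CPM, against 207 of 8847 tested (2.34%), and 37 (12.67%) had basal replicate 1 over 2-fold above replicate 2, against 184 of those tested (2.08%). Enpep, an aminopeptidase, had 203 and 167 CPM with LPS and 11.45 and 0.658 CPM in basal cells, with basal replicate 2 at a single read (limma adjusted p = 9.22e-05). Best3, a chloride channel, had 135 and 135 CPM with LPS, 182 and 117 CPM with LPS and DEX and 6.87 and 1.97 CPM in basal cells (adjusted p = 1.18e-06). Kprp, a protein of the skin barrier, had 61.5 and 79.1 CPM with LPS, against 0.763 and 0.658 CPM in basal cells, at or under 3 reads (adjusted p = 9.22e-05). The mRNA of Kprp read 2.955 and 0.439 CPM with LPS and 0.678 and 0 CPM in basal cells. What gives such genes footprints was not tested.

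The largest losses also included genes with little mRNA. Ccn2, a matricellular growth factor, had 24.1 and 14.6 CPM with LPS, 109.5 and 109 CPM with LPS and DEX and 64.9 and 107 CPM in basal cells (4.445-fold higher in basal than with LPS, limma adjusted p = 0.000152). Kitl, the stem cell factor, had 26.5 and 12.2 CPM with LPS and 119 and 57.9 CPM in basal cells (4.57-fold higher in basal, adjusted p = 0.000947). The groups did not overlap in either gene, though the basal libraries of Kitl lay apart. H2-M10.2, a nonclassical MHC gene, had 1.21 and 0 CPM with LPS, at or under 3 reads, and 35.9 and 30.25 CPM in basal cells (adjusted p = 0.001025). Of the 15 lowest, 14 were in no list, 8 had a mean mRNA level under 5 CPM and 4 had basal replicate 1 over 2-fold above replicate 2. Over all genes that fell the last was so for 5 of 382 (1.309%), against 2.08% of those tested, and 40 (10.47%) had an mRNA level under 5 CPM, against 2.34%.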

How the data were processed

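Per the labels' protocols, poly(A) mRNA and footprints were taken from cells incubated with cycloheximide and sequenced on an Ion PGM. The authors deposited, per Ensembl gene and library, counts scaled to the library total (CPM) plus 1. This unit was read from the values: less 1, 100% are whole multiples of 1 read (tolerance 0.1 read). The listed genes hold 98.5% to 98.9% of footprint reads. The aligner, genome build and annotation remain not given in the sources used here. Symbols matched 9521 of 9621 identifiers, from a table of Ensembl names, and promoters came from RefSeq (GRCm38.p6).

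The log2 of the deposited value was fitted with limma 3.58.1 (trend, R 4.3.3) over the 6 footprint libraries, with the treatments as the factor. The test was two-sided, and p-values were adjusted by the Benjamini-Hochberg method over 8847 genes, with a threshold of 0.05. Errors of fold changes are standard errors. Folds compare group means of CPM, and no fold is given where a group lies at or under 3 reads per library, which is 3.62 and 3.65 CPM with LPS and 2.29 and 1.97 CPM in basal cells. Reads without molecular identifiers are not independent molecules, so such limits cover counting error only. TE was an interaction in 1 fit over 12 libraries.

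The members, the 52 lists and the tests were chosen with earlier results of these data known. Genes were named by a rule: the 15 highest and 15 lowest changes that passed with 20 or more reads in the higher group, and up to 5 per list and direction. Both parts took only genes whose LPS and basal libraries did not overlap. The rule also named a preset group of genes, such as Tnf, Tlr4 and Eef2, and the extremes of lists without a call. Some genes that met the rule are not reported here. Genes outside both the rule and the lists are said to be chosen after their values were seen. Some list members outside the rule, such as Nfkb1 and mt-Atp8, are given beside their list. With 2 replicates a group, the values cover the spread between these cultures.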

Additional observations from a re-analysis of the deposited data

How the results depend on the processing

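Of 8847 genes, 674 changed in footprints. The total was 657 (378 higher, 279 lower) with median-of-ratios scaling, which raised the median change by 0.06 (log2), 659 with scaling to nuclear genes, 690 with log2(CPM + 2), 577 with a stricter filter and 493 with limma-voom on the recovered reads, an alternative chosen after seeing the data. It was 281 with no filter and 323 with the 4 LPS and basal libraries alone, where fewer libraries estimate the spread. Leaving out 1 library gave 375 to 709. The 9621 genes with no filter include many near the limit of 1 read, and the cause of the lower count was not tested. With the replicate block it was 690 (296 higher, 394 lower). Across genes, the deviation of replicate 1 from its group mean had a correlation of -0.09 between the LPS and basal groups. With 2 libraries a group, this value cannot decide whether same-numbered cultures were handled together. No called gene changed sign under any of these settings. Of 200 named genes that passed, 173 kept the call with median-of-ratios scaling, 165 with limma-voom, 120 with 4 libraries, 102 with no filter, and 103 to 171 with 1 library left out.

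In TE 1567 genes changed (290 higher, 1277 lower). With median-of-ratios scaling there were 1015 (583 higher, 432 lower), since that scaling moved the median TE change by 0.32, so TE directions over many genes depend on it. With 1 library left out the count ran from 736, without mRNA LPS replicate 2, to 2164, without mRNA basal replicate 2. The replicate block gave 1316. edgeR and DESeq2 were planned on recovered reads and were not run, so limma-voom is the one fit of those reads. With 3 reads worth 3.62 and 3.65 CPM in the LPS libraries, no fold could be given for genes that lay at or under that level in a group.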

Other observations

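Further genes outside the lists whose footprints fell in every fit with 1 library left out were chosen after their values were seen. Cnpy3, the chaperone that Toll-like receptors need to fold, had 60.3 and 46.2 CPM in LPS-treated cells, against 108 and 109.8 CPM in basal cells (2.05-fold higher in basal, log2 -1.03 ± 0.17, limma adjusted p = 0.00195). Mknk2, a kinase of the cap-binding factor eIF4E that MAP kinases activate, had 21.7 and 14.6 CPM with LPS and 43.5 and 46.03 CPM in basal cells (2.47-fold higher in basal, log2 -1.28 ± 0.25, adjusted p = 0.00729). Arrb1, a beta-arrestin that uncouples G protein-coupled receptors, had 40.99 and 32.85 CPM with LPS, against 70.98 and 66.4 CPM in basal cells (1.86-fold higher in basal, adjusted p = 0.00759). In these 3 genes no LPS library reached a basal one. Slc25a4, an ADP/ATP carrier of the inner mitochondrial membrane, had 286 and 219 CPM with LPS and 404.5 and 394 CPM in basal cells (1.58-fold higher in basal, adjusted p = 0.003101). The cysteine protease inhibitor Cst3 had 939 and 828.5 CPM with LPS, against 1323 and 1559 CPM in basal cells (1.63-fold higher in basal, adjusted p = 0.000586). Gnb1, a G protein beta subunit, had 188 and 192 CPM with LPS and 293 and 280.1 CPM in basal cells (1.51-fold higher in basal, adjusted p = 0.00304), and Csnk2b, the regulatory subunit of casein kinase 2, had 121 and 124 CPM with LPS, against 195 and 222 CPM in basal cells (1.704-fold higher in basal, adjusted p = 0.00196).

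Genes that rose by the same choice included Slfn2, a regulator of quiescence in immune cells, at 39.8 and 46.2 CPM in LPS-treated cells and 19.1 and 21.04 CPM in basal cells (2.14-fold, limma adjusted p = 0.005065). The membrane-binding annexin Anxa3 had 318 and 187 CPM with LPS, against 124 and 115 CPM in basal cells (2.11-fold, adjusted p = 0.00368). Sub1, a transcriptional coactivator, had 231.5 and 238.5 CPM with LPS and 149.6 and 134 CPM in basal cells (1.66-fold, adjusted p = 0.00149). Both LPS libraries lay above both basal libraries in each. Of 47 proteasome subunits 2 fell and none rose, a share of 4.255% lower against 4.32% over all genes tested, with a median of 0.10. Psma6, of the core alpha ring, had 262 and 342 CPM with LPS, against 457 and 464 CPM in basal cells (log2 -0.62 ± 0.12, adjusted p = 0.00448, but 0.0579 without LPS replicate 1). Psmb6, of the core beta ring, had 377 and 298 CPM with LPS and 472 and 516 CPM in basal cells (log2 -0.56 ± 0.11, adjusted p = 0.00878, but 0.09501 without LPS replicate 2). Citrate synthase, Cs, was the 1 member of 22 citrate cycle and pyruvate dehydrogenase genes to pass, at 387 and 399 CPM with LPS, against 537 and 536 CPM in basal cells (log2 -0.45 ± 0.09, adjusted p = 0.005945, but 0.0546 without LPS replicate 1). The glucocorticoid target Tsc22d3 had 2.41 and 2.43 CPM with LPS, at or under 3 reads, 6.65 and 7.635 CPM with LPS and DEX and 9.92 and 15.1 CPM in basal cells (adjusted p = 0.0293, but 0.0578 without LPS replicate 1, 0.0564 without LPS replicate 2 and 0.196 without basal replicate 2).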
